A study of Mus musculus with 30 samples.

Results

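Neural retina treated with bromocriptine (BRM) before bright light was compared with neural retina treated with metoprolol (MTP) before the same light. The comparison takes the 3 BRM and the 3 MTP libraries of the single-drug experiment, 6 of its 18 libraries and of 30 in the series, with the deposited transcript counts summed per gene. All mice were Abca4-/-Rdh8-/- on a C57BL/6J background, 4 to 6 weeks old and of both sexes. They were housed in dim cyclic light of at most 10 lux. Both drug groups were injected intraperitoneally 30 min before 10000 lux of white light for 30 min, and the retinas were collected 24 h later. The light group of the same experiment (3 libraries) had the exposure with no drug named in its labels. An injection 30 min before light is recorded for it as well. The no light group (3 libraries) had no exposure and no drug named. Doses are not stated in those labels, and no group received either drug without light. Every group lacks Abca4 and Rdh8, so none shows what the drugs do in a wild-type retina. Nothing in the labels ties a library to its own animal, so p-values measure the spread between libraries, which may be technical.

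Both drugs reach heterotrimeric G protein signalling, from different receptors. Bromocriptine activates D2-type dopamine receptors, which couple to inhibitory G proteins and restrain adenylyl cyclase, and in the mouse retina Drd4 is the D2-type receptor of photoreceptors. Metoprolol blocks the beta-1 adrenergic receptor, which couples to the stimulatory G protein and raises cAMP. In these mice the visual cycle cannot clear all-trans-retinal normally, and bright light injures rods and cones. Müller glia then turn on injury genes.

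Library depth was similar in both drug groups, at 18216726 to 21732321 gene counts in BRM libraries and 17549651 to 20165175 in MTP libraries. The summed level of 5 rod markers was 46100 to 56700 CPM (counts scaled to library size) in BRM libraries and 48300 to 59400 CPM in MTP libraries, as befits the retinal label. Libraries differed more in other tissue. Crystallins, the structural proteins of the lens, took 3.14%, 2.14% and 5.74% of the counts in the BRM libraries, against 0.1%, 3.26% and 0.0818% in the MTP libraries. The lens membrane channel Mip had 742, 573 and 1488 CPM in BRM libraries, against 2.21, 905 and 6.12 CPM in MTP libraries. All 3 BRM libraries and MTP replicate 2 were thus rich in lens transcripts. The BRM libraries also gave higher values to GC-rich transcripts. Over 13030 genes with a mean of at least 1 log2 CPM, the median log2 fold change of BRM over MTP was -0.105 in the lowest of 5 equal groups by GC content and 0.182 in the highest. The rank correlation (Spearman, across genes) of a library's deviation from the mean with GC content was 0.35, 0.34 and 0.33 in the BRM libraries and -0.03, 0.04 and -0.43 in the MTP libraries. List results are therefore also given from a fit with a GC offset and from a fit with a lens-fibre score as covariate. The GC offset was added after the data were seen.

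**Figure D1:**
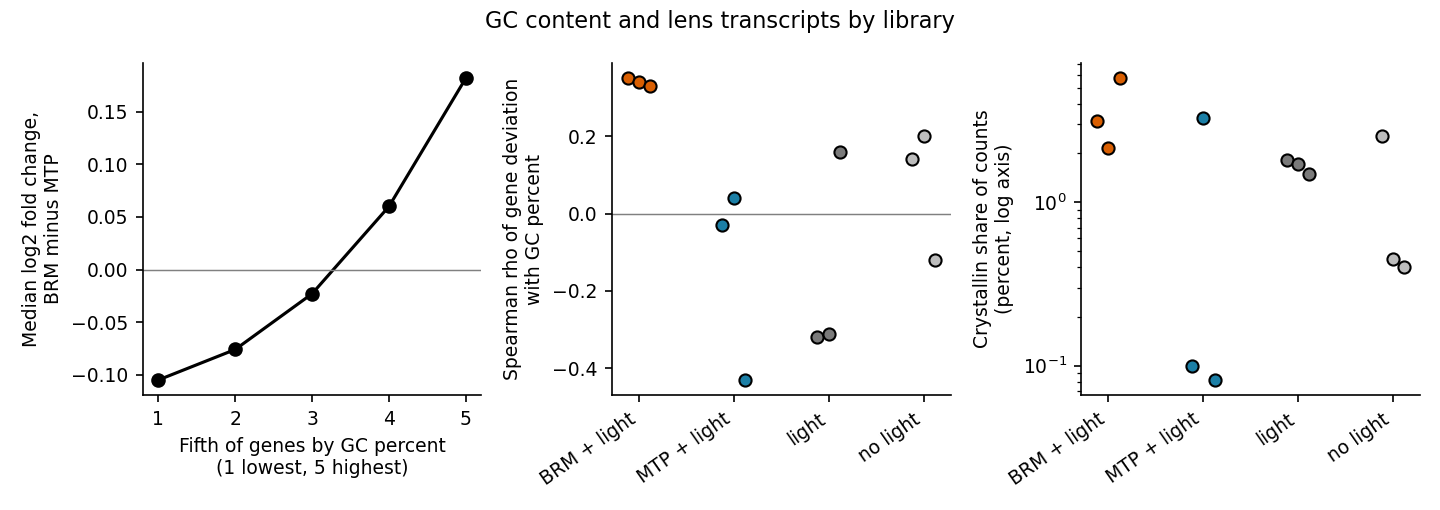
GC content and lens transcripts. Left, the median log2 fold change of BRM over MTP in 5 equal groups of 13030 genes ordered by GC percent. Middle, the rank correlation of each library's deviation with GC percent. Right, the crystallin share of counts (percent, log axis). Points are single libraries. The 3 BRM libraries sit together at 0.33 to 0.35 in the middle panel, and their crystallin shares of 2.14% to 5.74% are shared by MTP replicate 2 alone among MTP libraries.

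Retinas that had BRM and retinas that had MTP before light were not told apart at any single gene. Of 16249 genes tested with edgeR's quasi-likelihood test over the 18 libraries, 0 passed an adjusted p of 0.05 (0.00%), and the smallest adjusted p was 0.502. At an unadjusted p of 0.05 the count was 1589 (9.78%), of which 762 were higher in BRM (4.69%) and 827 lower (5.09%). The 3 BRM libraries lay above all 3 MTP libraries for 1686 genes (10.4%) and below them for 1654 (10.2%), together 20.6% of genes. DESeq2 on the same counts called 10 genes, 1 higher and 9 lower in BRM. limma voom called 0 genes, with 1904 at an unadjusted p of 0.05. In the fit without the GC offset or the lens-fibre score, the data limited the size of a difference for most genes. The 95% interval of the log2 fold change lay within 2-fold either way for 12307 genes (75.7%), and for 11781 of the 13030 genes with a mean of at least 1 log2 CPM (90.4%). It lay within 1.5-fold for 9246 genes (56.9%). These bounds were not examined with the GC offset or the lens-fibre score. The median SE of a log2 fold change was 0.161.

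Both groups differed from light alone (edgeR, adjusted p of 0.05). In BRM 1151 genes were higher than in light (7.08%) and 1190 lower (7.32%), 2341 in all. In MTP 873 were higher (5.37%) and 798 lower (4.91%), 1671 in all. The counts varied with the library left out. For BRM the count was 1498, 978 and 1336 without BRM replicate 1, 2 and 3. Without light replicate 1, 2 and 3 it was 1254, 910 and 2491. For MTP the count was 882, 1313 and 1002 without MTP replicate 1, 2 and 3. Without light replicate 1, 2 and 3 it was 1097, 801 and 1274. These 2 comparisons share the 3 light libraries, so their values are set side by side below and their overlap was not measured. The difference between the 2 drugs is the direct test above, and a larger count in one drug does not show a larger effect.

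Receptors of the targeted systems overlapped in level between the groups. Drd2, the D2 dopamine receptor, had 11.5, 10.4 and 10.2 CPM in BRM libraries, against 8.85, 8.67 and 11.5 CPM in MTP libraries, a log2 fold change of 0.15 ± 0.18 (SE). The groups overlapped. Drd4 had 49.0, 66.1 and 61.3 CPM in BRM libraries, against 64.8, 51.4 and 34.5 CPM in MTP libraries (0.23 ± 0.32), again overlapping. Drd4 fell under light, by 1.64 on the log2 scale (adjusted p = 0.00205, edgeR). It was higher than in light alone by 1.33 in BRM (adjusted p = 0.0138, edgeR) and by 1.10 in MTP (adjusted p = 0.0404, edgeR). Drd1a, the files' name for the D1 receptor, had 29.1, 33.5 and 34.9 CPM in BRM libraries, against 31.3, 29.8 and 41.5 CPM in MTP libraries (-0.07 ± 0.16). Adrb1, the receptor that metoprolol blocks, had 14.3, 15.4 and 13.1 CPM in BRM libraries, against 15.2, 12.7 and 16.5 CPM in MTP libraries (-0.05 ± 0.15). In the fit with neither adjustment its 95% interval ran from -0.38 to 0.27, so a difference of 1.5-fold lay outside that interval. With the GC offset Adrb1 was at -0.31, and with the lens-fibre score as covariate at 0.14. The bound was not examined in those fits. Adrb1 was higher than in light alone in both drug groups, by 0.57 in BRM (adjusted p = 0.0223, edgeR) and by 0.62 in MTP (adjusted p = 0.0172, edgeR).

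The rest of both receptor systems gave 0 calls. Of 12 dopamine genes tested, 6 were higher and 6 lower in BRM, with a median log2 fold change of -0.004. Ppp1r1b, the dopamine- and cAMP-regulated phosphatase inhibitor DARPP-32, had 10.9, 7.99 and 10.0 CPM in BRM libraries, against 8.09, 6.53 and 5.63 CPM in MTP libraries (0.52 ± 0.23, adjusted p = 0.503, edgeR). Ddc, the decarboxylase that makes dopamine, had a log2 fold change of -1.01 ± 0.67, with 2.36 CPM in MTP replicate 2 and at most 1.01 CPM in the other 5 libraries. It was at -0.15 without that library. Drd5, the D5 receptor, was at -0.35 ± 0.26. Of 12 adrenergic genes, 8 were higher and 4 lower, with a median of 0.203, or -0.011 with the GC offset. Adrbk1, the kinase that desensitizes beta receptors, had 54.1, 52.7 and 59.9 CPM in BRM libraries, against 50.6, 48.1 and 48.3 CPM in MTP libraries. Its log2 fold change was 0.18 ± 0.10, and -0.05 with the GC offset. Adra1a and Adra1d, which encode alpha-1 receptors, had log2 fold changes of 0.78 ± 0.48 and 0.62 ± 0.36 at no more than 2.42 CPM in any of the 6 libraries. Arrb2, beta-arrestin 2, was at 0.11 ± 0.10, and at -0.09 with the GC offset.

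**Figure D2:**
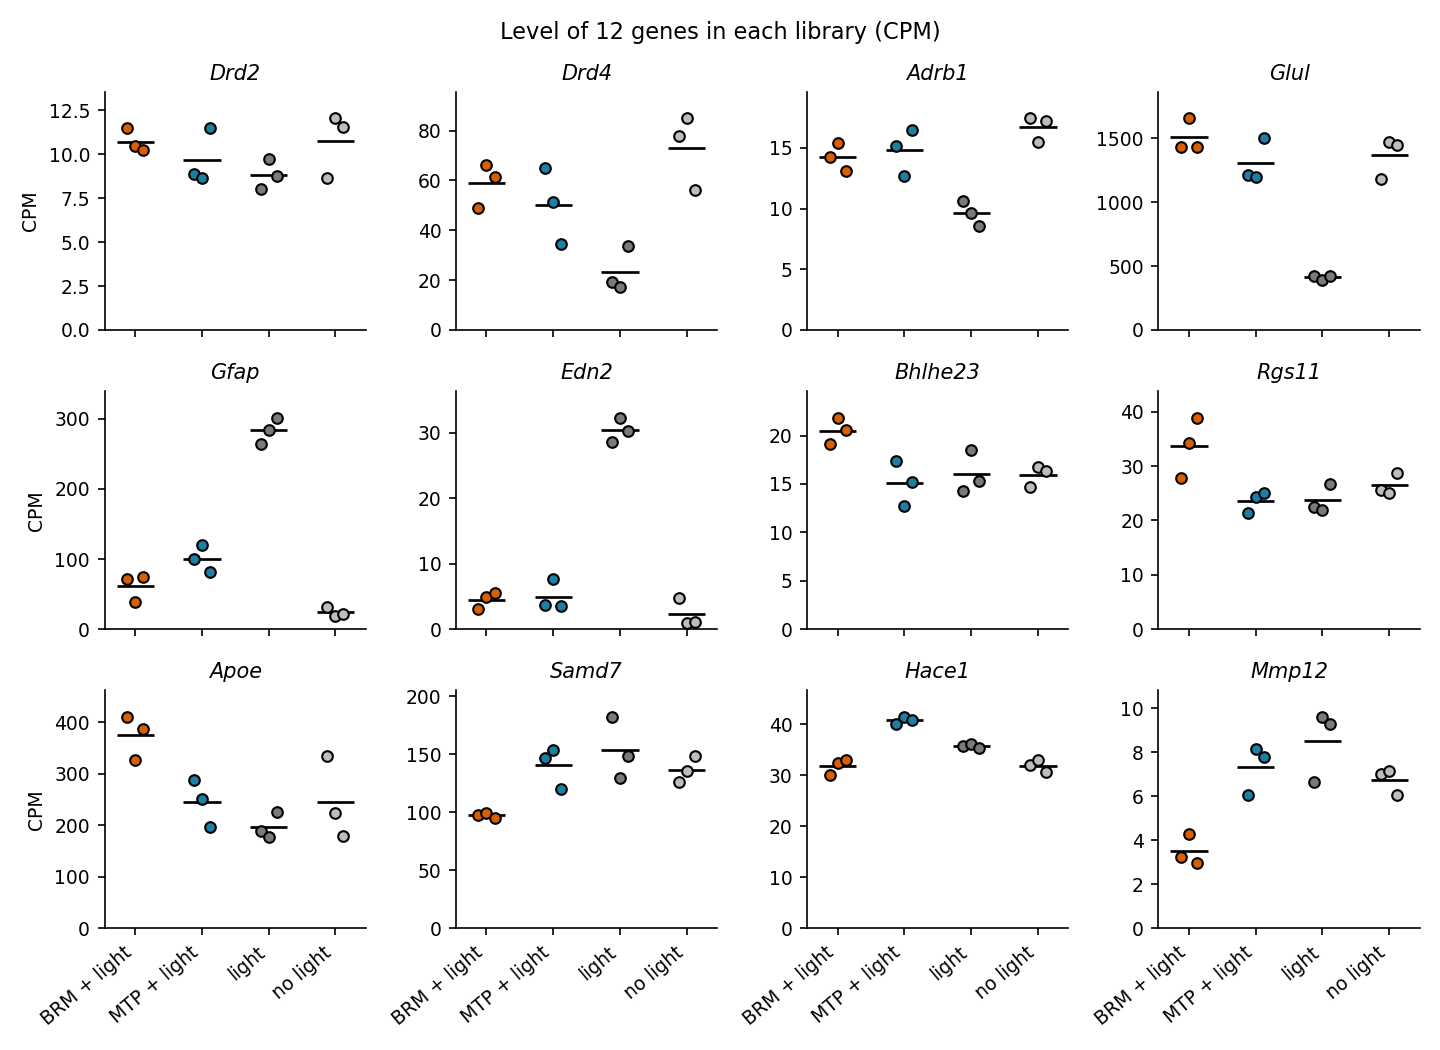
Level (CPM, linear axis from 0) of 12 genes in each library of BRM with light, MTP with light, light and no light. Points are single libraries and bars are group means. Drd2, Drd4, Adrb1, Glul and Edn2 overlap between BRM and MTP, whereas the 3 BRM libraries lie above the MTP libraries for Bhlhe23, Rgs11 and Apoe and below them for Gfap, Samd7, Hace1 and Mmp12, with 0 genes called.

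Downstream of the receptors, 47 genes of cAMP and G protein signalling had a median log2 fold change of -0.029, with 16 higher and 31 lower in BRM. At an unadjusted p of 0.05, 3 were higher and 2 lower, against 4.69% and 5.09% of all genes. Gnai2, an inhibitory G protein alpha subunit, had 131.9, 118.8 and 138.6 CPM in BRM libraries, against 101.1, 108.2 and 102.0 CPM in MTP libraries. Its log2 fold change was 0.32 ± 0.13 (adjusted p = 0.502, edgeR). Gnas, the stimulatory alpha subunit, had 834.7, 711.4 and 760.2 CPM in BRM libraries, against 663.8, 674.3 and 659.3 CPM in MTP libraries (0.21 ± 0.09). Both alpha subunits had no overlap. They were among 6 of the 47 genes with all BRM libraries above all MTP libraries (10.4% of all genes). Another 6 of the 47 had all BRM libraries below (10.2% of all genes). Gnai2 was at 0.13 with the GC offset and 0.15 with the lens-fibre score as covariate. Adcy3, an adenylyl cyclase, was at 0.30 ± 0.14, also with no overlap. Prkar2a, a regulatory subunit of protein kinase A, lay the other way, at 160.6, 181.7 and 152.5 CPM in BRM libraries and 197.9, 185.8 and 190.9 CPM in MTP libraries (-0.22 ± 0.08). With the GC offset 0 members were higher and 2 lower at an unadjusted p of 0.05.

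Genes that cAMP and neuronal activity are known to induce through the factor CREB were examined as a readout of that pathway. CREB binds the palindrome TGACGTCA and, more weakly, the shorter TGACG. The 250 bases before the start of 3 such genes are shown because they carry these letters, with both the palindrome and the short form (either strand) in capitals. They come from RefSeq on GRCm38.p6, are written 5′ to 3′ on the gene's strand, and end at the base before the start.
Dusp1, chr17:26508473-26508722, minus strand: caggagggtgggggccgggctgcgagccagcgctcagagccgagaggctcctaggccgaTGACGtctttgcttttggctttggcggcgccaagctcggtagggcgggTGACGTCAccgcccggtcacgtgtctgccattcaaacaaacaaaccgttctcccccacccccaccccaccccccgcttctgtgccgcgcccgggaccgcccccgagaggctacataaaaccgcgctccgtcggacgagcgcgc
Nr4a1, chr15:101266596-101266845, plus strand: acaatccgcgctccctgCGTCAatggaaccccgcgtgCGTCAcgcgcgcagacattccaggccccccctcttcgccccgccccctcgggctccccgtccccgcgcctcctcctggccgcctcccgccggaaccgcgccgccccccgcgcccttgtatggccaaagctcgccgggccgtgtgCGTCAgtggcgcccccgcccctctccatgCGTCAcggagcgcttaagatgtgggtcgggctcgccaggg
Id3, chr4:136143572-136143821, plus strand: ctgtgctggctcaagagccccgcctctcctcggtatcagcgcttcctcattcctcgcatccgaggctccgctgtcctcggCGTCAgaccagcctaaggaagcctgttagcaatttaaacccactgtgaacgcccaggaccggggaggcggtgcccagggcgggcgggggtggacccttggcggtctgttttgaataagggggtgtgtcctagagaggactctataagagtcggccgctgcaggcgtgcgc
In Dusp1 the palindrome begins 143 bases before the start and overlaps 2 of the 3 short matches. Of 28 tested genes of the list, 16 matched the promoter table by symbol, taken at the first start listed. The palindrome stood in 2 of these 16 (12.5%), against 1.62% of 27025 promoters, and the short form in 12 (75%), against 17.9%. A match describes the letters and does not show binding.

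None of these genes was called between the drugs. The 28 genes had a median log2 fold change of 0.174, with 19 higher and 9 lower in BRM, 2 higher and 0 lower at an unadjusted p of 0.05, near the 4.69% and 5.09% of all genes. With the GC offset the median was 0.052 and the count at that p was 0. The list is rich in GC, with a median of 53.2%. Dusp1, a phosphatase that switches off MAP kinases, had 15.9, 15.9 and 14.6 CPM in BRM libraries, against 14.6, 12.4 and 13.9 CPM in MTP libraries (0.19 ± 0.11). Nr4a1, an immediate early nuclear receptor, had 12.9, 15.6 and 15.8 CPM in BRM libraries, against 12.1, 16.0 and 9.50 CPM in MTP libraries (0.24 ± 0.38). Nr4a1 fell relative to light in both groups, by 1.20 in BRM (adjusted p = 0.0477, edgeR) and by 1.43 in MTP (adjusted p = 0.0271, edgeR). Id3, an inhibitor of helix-loop-helix factors, had 23.2, 14.8 and 21.4 CPM in BRM libraries, against 9.31, 13.4 and 5.88 CPM in MTP libraries (1.06 ± 0.48, adjusted p = 0.503, edgeR). The 3 BRM values were all above the MTP values, and the highest MTP value was in the lens-rich replicate 2. With the lens-fibre score as covariate Id3 was at 0.11. Arc, a synaptic plasticity protein, stood near 1 CPM (0.76 ± 0.33), and Per1, a clock repressor, was at 0.28 ± 0.15. Dusp4, another MAP kinase phosphatase, was at 0.34 ± 0.18. These named members were all higher in BRM, and others were not. Of the genes matched to promoters, the 2 with the palindrome were higher, at 0.07 and 0.19. Of the 14 without it 5 were higher, and their median was -0.03. All 9 lower genes of the list were among those matched, so the unmatched genes, whose promoters were not read, were all higher. A link between the palindrome and the difference between the drugs was not tested. Nr4a2, Npas4 and Fos, which carry the short form, were lower, at -0.40, -0.21 and -0.14. Egr2, with neither form, was the lowest of the list, at -2.24.

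Light-responsive genes lay at overlapping levels in both drug groups, away from light alone. Light-responsive genes were taken from the mixture experiment, whose libraries enter no comparison here: 559 genes were higher (3.49%) and 101 lower (0.631%) by at least 2-fold, of 16007 tested. In the single-drug experiment 554 and 101 of these were tested. A score, the mean log2 CPM of the raised genes less that of the lowered genes, was -1.34, -1.95 and -1.40 in BRM libraries, -1.66, -1.34 and -1.90 in MTP libraries, 0.76, 1.22 and 1.10 in light libraries and -1.98, -2.27 and -2.31 in no light libraries. The drug groups overlapped each other, and all 6 drug libraries lay nearer to no light than to light. The raised genes had a median log2 fold change of 0.021 for BRM over MTP, with 287 higher and 266 lower. Relative to light their medians were -1.19 in BRM and -1.24 in MTP. The lowered genes had a median of -0.089 for BRM over MTP, with 38 higher and 63 lower, and medians of 1.13 in BRM and 1.19 in MTP relative to light. Neither drug group was called different from no light at any gene (edgeR). At an unadjusted p of 0.05, BRM differed from no light at 2535 genes and MTP at 1395, and the smallest adjusted p was 0.0502 for BRM and 0.299 for MTP.

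**Figure D3:**
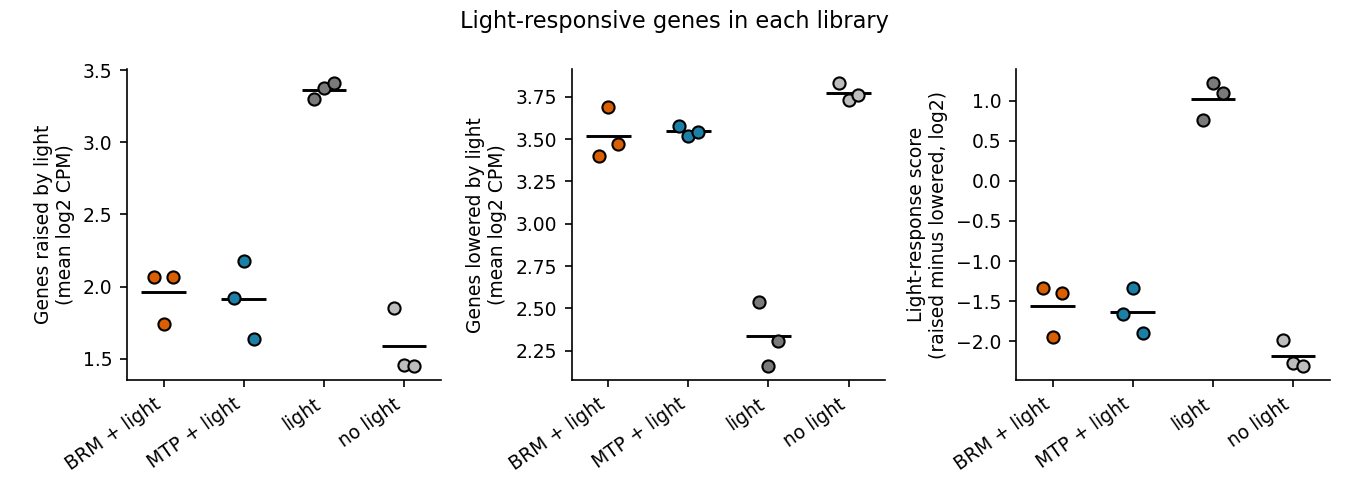
Mean log2 CPM of 554 genes raised and 101 genes lowered by light in the separate mixture experiment, and the difference of the 2 means. Points are single libraries and bars are group means. BRM scores of -1.95 to -1.34 and MTP scores of -1.90 to -1.34 cover nearly the same range, against 0.76 to 1.22 in light.

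Photoreceptor genes were close in level between the drugs and slightly lower in BRM. Of 36 genes of rod phototransduction and the outer segment, 31 were lower and 5 higher in BRM, with a median log2 fold change of -0.138 and a range of -0.26 to 0.11. All 36 had a 95% interval within 2-fold in the fit with neither adjustment. The median was -0.154 with the GC offset (35 lower), and -0.002 with the lens-fibre score as covariate (18 lower). Prom1, which builds outer segment discs, was the member with the smallest p, at 937.4, 1065 and 879.4 CPM in BRM libraries and 1226, 1091 and 1138 CPM in MTP libraries. Its log2 fold change was -0.26 ± 0.12 (adjusted p = 0.503, edgeR), with no overlap. Rp1, an axoneme protein, was at -0.23 ± 0.12, Grk1, a photoreceptor receptor kinase, at -0.24 ± 0.14, and Cnga1, the rod channel, at -0.26 ± 0.15. The targeted genes gave reads in both groups, with Abca4 at 552.4 to 667.7 CPM in BRM libraries and 632.7 to 673.6 CPM in MTP libraries (-0.13 ± 0.13) and Rdh8 at -0.16 ± 0.15. Gene counts do not show which part of a gene they come from, so they do not check the knockouts. Bulk samples cannot tell fewer cells of a type from less RNA per cell.

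Relative to light, 30 of the 36 rod genes rose in BRM (7.08% of all genes) and 33 in MTP (5.37% of all genes), with median log2 fold changes of 0.81 and 0.96. Opn1sw, the short-wave cone opsin, had 554.1, 614.5 and 431.3 CPM in BRM libraries, against 629.7, 558.3 and 536.5 CPM in MTP libraries (-0.11 ± 0.24). It rose relative to light by 1.57 in BRM (adjusted p = 0.00177, edgeR) and by 1.68 in MTP (adjusted p = 0.00145, edgeR). The 17 cone genes had a median of -0.108, with 4 higher and 13 lower, and 0.006 with the lens-fibre score as covariate. Cnga3, the cone channel, was at -0.30 ± 0.13 and Slc24a2, the cone exchanger, at -0.26 ± 0.11. Pde6c, the cone phosphodiesterase, was at -0.23 ± 0.11, and was below light in both groups, by -0.84 in BRM and -0.61 in MTP (adjusted p = 0.000861 and 0.00395, edgeR).

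Among photoreceptor transcription factors, 13 of 16 were lower in BRM, with a median of -0.095. That median was -0.156 with the GC offset and 0.014 with the lens-fibre score as covariate. Samd7, a rod silencing factor, had 97.9, 99.9 and 95.04 CPM in BRM libraries, against 147.0, 154.1 and 120.5 CPM in MTP libraries. The BRM values were close together and below every MTP value (-0.53 ± 0.20, unadjusted p = 0.0212, adjusted p = 0.502, edgeR). Samd7 fell relative to light in BRM, by 0.65 (adjusted p = 0.0441, edgeR), and was at -0.13 in MTP (adjusted p = 0.775, edgeR). Mef2c was at -0.28 ± 0.14 and Thrb, the receptor that directs cone opsin choice, at -0.19 ± 0.11. Rxrg, a cone nuclear receptor, was at 0.43 ± 0.21, with 8.67, 7.99 and 7.83 CPM in BRM libraries and 5.88, 6.58 and 5.68 CPM in MTP libraries. At the ribbon synapse, 22 genes had a median of -0.095, or -0.113 with the GC offset and -0.034 with the lens-fibre score as covariate. In BRM 15 of the 22 were lower, 3 of them at an unadjusted p of 0.05 (5.09% of all genes). Those were the SNARE protein Stx3 (-0.31 ± 0.14), the complexin Cplx4 (-0.27 ± 0.11) and the calcium sensor Syt1 (-0.22 ± 0.10). Cplx3, the other retinal complexin, was at 0.17 ± 0.08.

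Bipolar cell genes lay on the other side. Of 19 tested, 16 were higher in BRM, with a median log2 fold change of 0.182, beside 0.0001 over all genes. At an unadjusted p of 0.05, 7 were higher (4.69% of all genes) and 0 lower (5.09% of all genes), and 8 had all BRM libraries above all MTP libraries (10.4% of all genes). The adjusted p of every member was at least 0.502 (edgeR). Rgs11, which speeds the G protein of ON bipolar cells, had 27.8, 34.2 and 38.9 CPM in BRM libraries, against 21.3, 24.4 and 25.0 CPM in MTP libraries (0.51 ± 0.14). Bhlhe23, a factor of rod bipolar cells, had 19.1, 21.9 and 20.6 CPM in BRM libraries, against 17.3, 12.7 and 15.2 CPM in MTP libraries (0.44 ± 0.14). For both of these the lowest BRM library was above the highest MTP library. Pcp2, an ON bipolar modulator of G proteins, overlapped through MTP replicate 1, with 58.5, 76.3 and 74.1 CPM in BRM libraries and 59.9, 44.5 and 43.3 CPM in MTP libraries (0.50 ± 0.19). Grm6, the glutamate receptor of ON bipolar cells, and its partners Gpr179 and Trpm1 were at 0.41 ± 0.17, 0.39 ± 0.17 and 0.56 ± 0.23. Grm6 and Gpr179 are named for this role, and Trpm1 is also a member of the pigment list below. In BRM and in no light Trpm1 was highest in replicate 1 (252.8 and 277.7 CPM), as was the pigment gene Pmel. In light Trpm1 was highest in replicate 2 (252.2 CPM), where Pmel was lowest. How much pigmented tissue adds to Trpm1 was not tested.

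Not every bipolar marker lay higher in BRM. Prkca, the rod bipolar kinase, was at -0.06 ± 0.14 and Cabp5, a calcium-binding protein, at 0.07 ± 0.17. Relative to light, 2 of 19 bipolar genes rose in BRM (7.08% of all genes) and 0 in MTP (5.37% of all genes), shares near the background. They were Pcp2, by 1.00 (adjusted p = 0.00423, edgeR) and Rgs11, by 0.51 (adjusted p = 0.0250, edgeR). The summed level of 4 bipolar markers was 305 to 363 CPM in BRM libraries, 233 to 292 CPM in MTP libraries, 231 to 316 CPM in light and 247 to 309 CPM in no light. The list median was 0.154 with the GC offset, with 3 members at an unadjusted p of 0.05, and 0.368 with the lens-fibre score as covariate. Against MTP replicate 2 alone, the lens-rich MTP library, it was 0.422, a value from 1 MTP library chosen after the data were seen, with no spread of its own. Without MTP replicate 2 it was 0.126, with 12 higher and 7 lower.

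Müller glia genes were examined for the injury state. Of 22 genes of Müller glia function, 17 were higher in BRM (median 0.186), and 12 (median 0.027) with the lens-fibre score as covariate. Apoe, a lipid carrier, had 410.8, 326.6 and 387.6 CPM in BRM libraries, against 287.8, 250.4 and 197.3 CPM in MTP libraries (0.61 ± 0.23, adjusted p = 0.502, edgeR). It was at 0.40 with the GC offset and at 0.24 with the lens-fibre score as covariate. It rose relative to light by 0.93 in BRM (adjusted p = 0.0162, edgeR) and was at 0.31 in MTP (adjusted p = 0.461, edgeR). Glul, which converts glutamate to glutamine, had 1434, 1654 and 1432 CPM in BRM libraries, against 1214, 1198 and 1504 CPM in MTP libraries (0.21 ± 0.26). It rose relative to light in both, by 1.87 in BRM and 1.66 in MTP (adjusted p = 0.00116 and 0.00222, edgeR). Clu, an extracellular chaperone, and Hes1, a Notch target, were at 0.57 ± 0.38 and 0.54 ± 0.30, and at -0.26 and -0.06 with the lens-fibre score as covariate. Crabp1 was at 0.38 ± 0.19.

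The gliosis and injury list held 29 tested genes with a median of -0.062, 12 above 0 and 17 below. Its median was -0.072 with the GC offset and -0.426 with the lens-fibre score as covariate. Relative to light, 20 fell in BRM (7.32% of all genes) and 17 in MTP (4.91% of all genes), with median log2 fold changes of -1.95 and -2.01. Gfap, the intermediate filament of reactive glia, had 70.9, 38.5 and 75.0 CPM in BRM libraries, against 100.2, 119.3 and 81.3 CPM in MTP libraries. All 3 BRM values were below the MTP values, and the log2 fold change was -0.71 ± 0.58 (adjusted p = 0.646, edgeR). Gfap had 263.6, 284.5 and 301.4 CPM in light and 32.2, 19.1 and 21.1 CPM in no light. It fell relative to light in BRM, by 2.20 (adjusted p = 0.0244, edgeR), and was at -1.50 in MTP (adjusted p = 0.125, edgeR). The authors' deposited table gives -2.29 for BRM and -1.54 for MTP relative to light for the Gfap transcript. Edn2, an endothelin released by stressed photoreceptors, had 3.13, 4.86 and 5.45 CPM in BRM libraries, against 3.67, 7.65 and 3.53 CPM in MTP libraries, and 28.6 to 32.3 CPM in light. Prss56, a Müller glia protease, had 2.89, 2.40 and 6.57 CPM in BRM libraries, against 3.03, 7.99 and 2.60 CPM in MTP libraries, and 132.7 to 189.5 CPM in light. Both genes overlapped between the drugs.

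Some members of this list were high in the lens-rich libraries. Vim, an intermediate filament, had 390.5, 286.1 and 551.3 CPM in BRM libraries, against 108.8, 432.5 and 93.3 CPM in MTP libraries. S100a6, a calcium-binding protein, had 36.4, 21.97 and 52.6 CPM in BRM libraries, against 9.37, 38.2 and 5.54 CPM in MTP libraries. With the lens-fibre score as covariate Vim was at -0.43 and S100a6 at -0.10. Timp2, a protease inhibitor, was at 0.34 ± 0.21, and at -0.07 with that covariate, and Gadd45a, a DNA damage gene, was at -0.15 ± 0.11.

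The 37 interferon response genes had a median of 0.013 for BRM over MTP, with 20 higher and 17 lower. Relative to light 33 fell in BRM (7.32% of all genes) and 34 in MTP (4.91% of all genes), with medians of -2.31 and -2.52. Tap2, a peptide transporter of antigen presentation, was at 0.51 ± 0.27, with no overlap, and Xaf1, an apoptosis regulator, at 0.40 ± 0.22. Ifit1, an antiviral RNA-binding protein, was at 0.58 ± 0.40, and at -0.01 without BRM replicate 1. Oas1a, an antiviral synthetase, stood at no more than 0.289 CPM in any of the 6 libraries. The 21 microglia and macrophage genes had a median of 0.045. Ly86, a myeloid surface protein, had 1.01, 1.51 and 1.12 CPM in BRM libraries, against 2.33, 1.75 and 1.91 CPM in MTP libraries (-0.72 ± 0.28). Cx3cr1, the fractalkine receptor, was at -0.28 ± 0.17, whereas the complement genes C1qa and C1qb were at 0.43 ± 0.24 and 0.38 ± 0.20, with members on both sides.

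The genes with the smallest p in the direct comparison mostly differed by less than 2-fold. Their libraries were close together within each group, which a choice by small p and no overlap favours. Hace1, a ubiquitin ligase (chromosome 10, 45577829 to 45712345 on GRCm38), had 30.1, 32.5 and 33.0 CPM in BRM libraries, against 40.04, 41.4 and 40.8 CPM in MTP libraries. Its log2 fold change was -0.36 ± 0.06 (unadjusted p = 5.34e-05, adjusted p = 0.502, edgeR). Light libraries lay between the drugs, at 35.3 to 36.2 CPM, and no light libraries had 30.6 to 33.0 CPM. Mmp12, macrophage elastase (chromosome 9, 7344381 to 7369499), had 3.23, 4.30 and 2.98 CPM in BRM libraries, against 6.05, 8.16 and 7.79 CPM in MTP libraries. It was at -1.07 ± 0.21 (unadjusted p = 0.000109), and it fell relative to light in BRM, by 1.28 (adjusted p = 0.00181, edgeR). Pspc1, a paraspeckle protein (chromosome 14, 56722441 to 56778316), had 27.3, 28.7 and 25.5 CPM in BRM libraries, against 34.05, 36.1 and 36.8 CPM in MTP libraries (-0.39 ± 0.08). Cadm2, a synaptic adhesion molecule (chromosome 16, 66655421 to 67620908), had 305.1, 327.8 and 299.1 CPM in BRM libraries, against 392.7, 366.7 and 392.2 CPM in MTP libraries (-0.31 ± 0.06). The predicted gene Gm17655 had 1.11, 1.01 and 1.02 CPM in BRM libraries, against 3.55, 2.70 and 2.74 CPM in MTP libraries (-1.51 ± 0.32). Its reads may be shared with similar copies, so its level is uncertain.

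DESeq2 called these 5 genes and mt-Nd4l, with Hace1 at an adjusted p of 0.00234 and Mmp12 at 0.00671. Its other calls were Wisp1 (-0.64 ± 0.14 in edgeR), a matricellular protein, Iltifb, an interleukin-22 copy with at most 2.21 CPM, and the predicted genes C030014I23Rik and Gm29216. These 4 were chosen after their values were seen, and reads of Iltifb and of the predicted genes may be shared with similar copies. Gm29216 was the 1 gene that DESeq2 called higher in BRM, at 405.8, 408.3 and 398.9 CPM in BRM libraries and 260.7, 212.4 and 104.2 CPM in MTP libraries.

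On the higher side, Vstm2b (chromosome 7, 40899215 to 40930594) had 15.8, 16.7 and 18.6 CPM in BRM libraries, against 11.5, 12.4 and 11.8 CPM in MTP libraries (0.52 ± 0.11, unadjusted p = 0.00036, adjusted p = 0.502, edgeR). St6galnac4, a sialyltransferase (chromosome 2, 32587095 to 32599698), had 20.04, 14.6 and 17.1 CPM in BRM libraries, against 10.5, 11.0 and 13.1 CPM in MTP libraries (0.58 ± 0.13). Gys1, muscle-type glycogen synthase (chromosome 7, 45434844 to 45456619), had 10.7, 11.6 and 11.6 CPM in BRM libraries, against 7.86, 6.81 and 8.38 CPM in MTP libraries (0.56 ± 0.13). All of these had no overlap between the drugs, which the rule of choice requires. Asic3, an acid-sensing channel subunit (chromosome 5, 24413451 to 24417834), was at 0.60 ± 0.14 and rose relative to light in BRM by 0.44 (adjusted p = 0.0464, edgeR). The predicted gene Gm20878 was at 0.81 ± 0.18 and the transcript 2900093K20Rik at 0.96 ± 0.23, both at no more than 5.54 CPM, and copies of Gm20878 may share its reads.

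**Figure D4:**
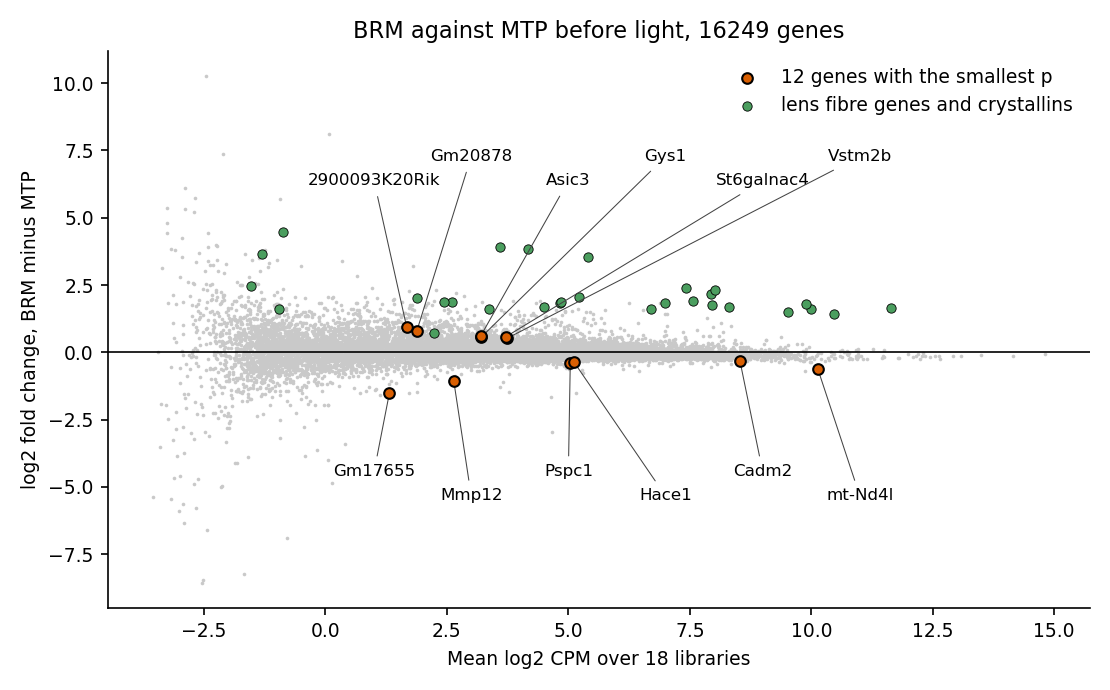
Log2 fold change of BRM over MTP against mean log2 CPM for 16249 genes (grey). The 12 genes with the smallest p under the naming rule (orange) lie between -1.51 and 0.96, with 0 called. The lens fibre genes and crystallins (green) all lie above 0.

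Of the lists described, lens and anterior eye genes had the largest medians. All 28 lens fibre genes and crystallins were higher in BRM, with a median log2 fold change of 1.865, and 7 passed an unadjusted p of 0.05 (4.69% of all genes). The median rested on single libraries, at 5.33 without MTP replicate 2 and 1.168 without BRM replicate 3. MTP replicate 2 lay within the BRM range for Mip, as given above. The 4 members with the smallest p were highest in BRM replicate 3. Lgsn, a lens glutamine synthetase relative, had 6.50, 19.1 and 260.7 CPM in BRM libraries, against 4.31, 12.9 and 3.04 CPM in MTP libraries. Birc7, an apoptosis inhibitor, had 0.145, 0.503 and 8.06 CPM in BRM libraries, against 0.0582, 0.225 and 0.098 CPM in MTP libraries. The gamma crystallins Crygf and Cryge, near-identical copies whose reads may be split, reached 198.0 and 541.9 CPM in the same library. Hspb1, a small heat shock protein, followed it, with 3.37, 5.98 and 21.6 CPM in BRM libraries and 2.44, 3.32 and 2.60 CPM in MTP libraries.

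Of 30 extracellular matrix genes 25 were higher in BRM (median 0.920), with 2 at an unadjusted p of 0.05 (4.69% of all genes). With the lens-fibre score as covariate 9 were higher (median -0.170). Col6a1, a collagen chain, had 18.8, 20.2 and 23.5 CPM in BRM libraries, against 11.9, 16.1 and 18.1 CPM in MTP libraries (0.44 ± 0.16). Col3a1 and Col5a1, other collagens, were at 1.16 ± 0.53 and 1.00 ± 0.52. Col3a1 had 4.24, 1.01 and 0.932 CPM in BRM libraries, against 1.22, 1.01 and 0.539 CPM in MTP libraries, and was at 0.0797 without BRM replicate 1. Col5a1 was at -0.11 with the lens-fibre score as covariate. Mmp14, a membrane metalloproteinase, was at 0.52 ± 0.25. Of 18 ciliary body and iris genes 15 were higher (median 0.979). The smooth muscle genes Myh11 and Tagln were highest in BRM replicate 1, with 59.3, 4.92 and 4.75 CPM of Myh11 in BRM libraries, against 3.20, 1.75 and 2.45 CPM in MTP libraries. Aldh3a1, a corneal and lens dehydrogenase, was at 2.20 ± 1.15, and at 4.77 without MTP replicate 2. The 22 pigment genes had a median of 0.175. Pmel, the melanosome matrix protein, had 183.6, 24.7 and 30.6 CPM in BRM libraries, against 42.3, 11.3 and 14.1 CPM in MTP libraries. Oca2, a melanosome channel, was at 0.98 ± 0.55, and Ezr, a microvillus protein, at 1.03 ± 0.55, or -0.15 with the lens-fibre score as covariate. None of these passed the adjusted threshold, and how much non-retinal tissue contributes to any gene was not tested.

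**Figure D5:**
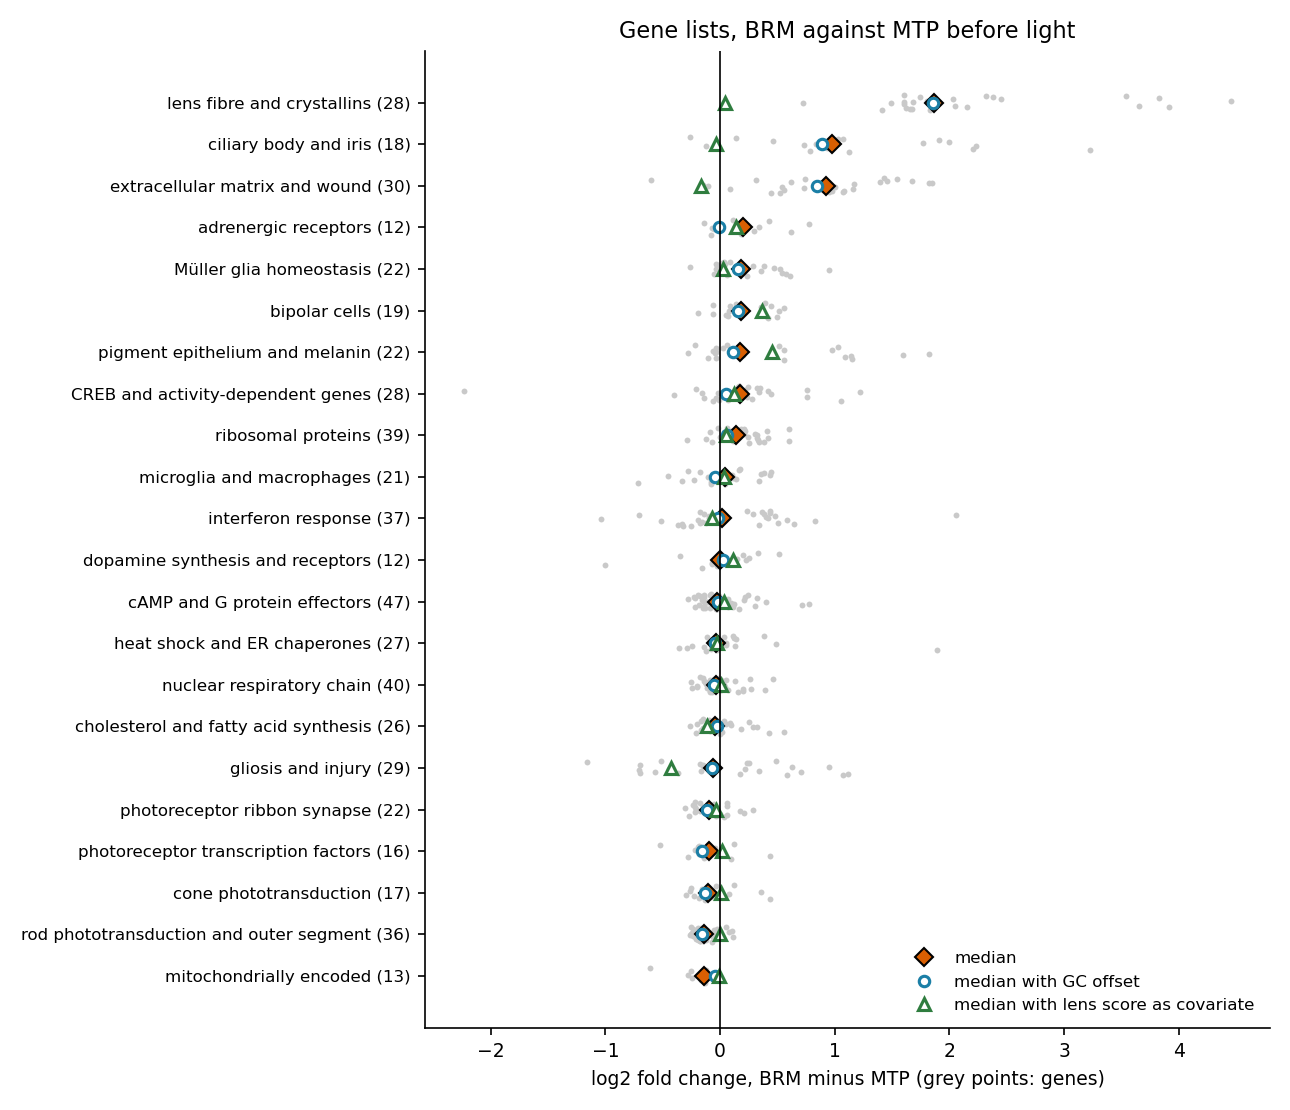
Log2 fold change of BRM over MTP for each gene (grey points) of 22 lists, with the number tested in parentheses. Diamonds are list medians, circles medians with the GC offset and triangles medians with the lens-fibre score as covariate. The lens, ciliary body and matrix medians of 1.865, 0.979 and 0.920 move to near 0 or below with the covariate, which for the lens list follows from its construction, since it averages 6 lens genes, and the bipolar median of 0.182 moves to 0.368.

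Housekeeping groups had medians between -0.141 and 0.138. All 13 mitochondrially encoded genes were lower in BRM (median -0.141), a list with a median GC content of 37.1%. The median was -0.045 with the GC offset and -0.011 with the lens-fibre score as covariate. mt-Nd4l, a complex I subunit, had 994.0, 949.4 and 967.9 CPM in BRM libraries, against 1291, 1754 and 1408 CPM in MTP libraries. Its log2 fold change was -0.61 ± 0.12 (adjusted p = 0.502, edgeR), and it rose relative to light in MTP by 0.66 (adjusted p = 0.00343, edgeR), against 0.04 in BRM (adjusted p = 0.852, edgeR). mt-Nd3, mt-Atp8 and mt-Co3, of complexes I, V and IV, were at -0.28 ± 0.14, -0.24 ± 0.12 and -0.19 ± 0.10. Of 40 nuclear respiratory chain genes 25 were lower (median -0.040), and Uqcrb and Uqcrc2 of complex III were at -0.25 ± 0.09 and -0.13 ± 0.06. Ndufa4 and Ndufa5 were at -0.25 ± 0.12 and -0.20 ± 0.09. Of 39 ribosomal protein genes 33 were higher. Their median was 0.138, or 0.057 with the GC offset and 0.05 with the lens-fibre score as covariate. Rplp0 was at 0.60 ± 0.27, Rps9 at 0.38 ± 0.15 and Rps2 at 0.30 ± 0.13. With that covariate Rplp0 was at 0.05, Rps9 at 0.23 and Rps2 at 0.06.

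Chaperones and lipid synthesis had medians near that of all genes. The 27 chaperone genes had a median of -0.039. Hsp90b1, the endoplasmic reticulum HSP90, had 597.7, 598.9 and 570.9 CPM in BRM libraries, against 741.0, 679.7 and 737.3 CPM in MTP libraries (-0.29 ± 0.10). Hsp90aa1, a cytosolic HSP90, was at -0.24 ± 0.11 and Canx, calnexin, at -0.14 ± 0.07. The 26 genes of cholesterol and fatty acid synthesis had a median of -0.042. Msmo1, an enzyme of cholesterol synthesis, had 65.4, 58.0 and 64.0 CPM in BRM libraries, against 77.1, 72.7 and 75.5 CPM in MTP libraries (-0.27 ± 0.09, adjusted p = 0.502, edgeR). The 3 BRM values were below every MTP value. Acaca, which starts fatty acid synthesis, was at -0.21 ± 0.09. Srebf1, which encodes the factor that induces fatty acid enzymes, lay the other way, at 85.0, 93.6 and 94.8 CPM in BRM libraries and 66.0, 73.5 and 46.6 CPM in MTP libraries (0.56 ± 0.24). Relative to light Srebf1 rose in BRM by 1.16 (adjusted p = 0.00714, edgeR) and was at 0.60 in MTP (adjusted p = 0.141, edgeR).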

How the data were processed

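RNA was sequenced from neural retina with a stranded mRNA kit, per the labels' protocols. Trimmomatic, Bowtie2, TopHat2, eXpress, edgeR, limma and GRCm38.p3 are named in the submitters' processing notes, without versions. The authors deposited expected counts per transcript from eXpress, and FPKM per transcript. They also deposited a table of log2 fold changes with p-values. Here the expected counts were summed per gene and rounded. edgeR 4.0.16 (R 4.3.3) filtered genes, normalized by TMM and fitted the 18 libraries of the single-drug experiment with the quasi-likelihood test. P-values were adjusted by Benjamini-Hochberg over all genes, with a threshold of 0.05. An SE is that of the log2 fold change. Alternatives were DESeq2 1.42.0, limma 3.58.1, other scaling, FPKM, a lens-fibre covariate averaged over 6 lens genes and leaving out each library. The GC offset and the use of MTP replicate 2 alone were added after the data were seen. The procedure was tested on simulated data. No difference in lens content between the groups was built in, so that test does not bear on the lens difference. The members and lists were chosen with earlier results of these data known. Named genes were, per direction, the 6 with the smallest p, no overlap between the groups and a mean of at least 1 log2 CPM, lens genes apart, the 4 with the smallest p in each list, and receptors and markers fixed by role. Others, such as Grm6, Gpr179, Dusp1 and Nr4a1, were added for their role after values were seen. Some genes that the rule would name are not reported here.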

Additional observations from a re-analysis of the deposited data

How the results depend on the processing

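BRM against MTP gave 0 calls with RLE size factors, no filter, limma voom, the 2 groups alone, the lens-fibre score, the GC offset and without each of the 6 libraries in turn (0 to 0). It gave 10 with DESeq2, 1 with FPKM at a pseudocount of 1, 1 at 0.1, and 2 with MTP replicate 2 alone. The replicate numbers did not pair the samples (r of 0.033, -0.133 and -0.109), and a replicate block gave 0 calls. The count against light was 1520 for BRM and 1082 for MTP with FPKM at a pseudocount of 0.1, 2132 and 1563 with the block, and 910 to 2491 for BRM and 801 to 1313 for MTP when 1 library was left out. With the lens-fibre score the log2 fold change turned for Drd5 (0.0905), Hes1 (-0.063), Clu (-0.26), Timp2 (-0.067), S100a6 (-0.095), Vim (-0.43), Ezr (-0.15), Col5a1 (-0.11), Drd1a (0.073), Adrb1 (0.14), Opn1sw (0.0403) and Mip (-0.59). Against MTP replicate 2 alone it turned for Drd5 (0.23), S100a6 (-0.044), Vim (-0.0785), Drd1a (0.13) and Adrb1 (0.17). It turned for Adrbk1 (-0.053) and Arrb2 (-0.093) with the GC offset, and for Arrb2 with FPKM (-0.042 and -0.049). Leaving out 1 library gave ranges that cross 0 for Ifit1 (-0.0099 to 0.82), Drd1a (-0.16 to 0.091), Adrb1 (-0.15 to 0.031), Opn1sw (-0.22 to 0.029), Edn2 (-0.34 to 0.32) and Prss56 (-0.76 to 0.51). The medians of these lists also crossed 0: gliosis (-0.207 to 0.4), interferon (-0.098 to 0.196), microglia (-0.095 to 0.267), pigment (-0.07 to 0.539), cAMP effectors (-0.061 to 0.037), dopamine (-0.031 to 0.073), nuclear respiratory chain (-0.09 to 0.001) and genes raised by light (-0.062 to 0.142). The cause was not tested. With 3 libraries a group, small differences at low counts were not detectable.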

Other observations

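Impg1, which encodes a proteoglycan of the matrix around photoreceptors, had 553.6, 589.2 and 476.3 CPM per gene in BRM libraries, against 723.2, 697.3 and 647.2 CPM in MTP libraries (log2 fold change -0.35 ± 0.13). One of its transcripts, Impg1-002, differed far more. Its deposited FPKM was 0.00129, 0.00877 and 0.00953 in BRM libraries and 10.5, 11.8 and 22.7 in MTP libraries, against 0.105 to 0.236 in light and 0.0227 to 1.57 in no light. It was the only transcript called by limma on log2(FPKM + 1), at -3.91 (adjusted p = 0.000163), and on log2(FPKM + 0.1), at -7.06 (adjusted p = 0.0394). With BRM values near 0, the size of the fold depends on the pseudocount. The other 2 transcripts were at -0.30 and -0.38. How the reads of 1 gene were divided among its transcripts was not tested.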
